A study of Nitraria sibirica with 9 samples.

Results

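The 200 clusters described here had the highest spread between replicate leaf libraries of Nitraria sibirica at every one of 3 salt levels, among the clusters ranked. They were chosen from the 11755 clusters of the deposited series table whose mean FPKM over 9 libraries lay from 10 to under 500. FPKM is the number of fragments counted for a cluster, scaled to library size and to a length. The length implied by count and FPKM had a median of 1103.5 bases over these clusters, beside 1350 for their full length. The series table holds the 31628 of 126059 clusters that were above 0.3 FPKM in every library. A cluster at or under that level in any library was therefore not ranked. For each, the standard deviation (SD) of log2 FPKM was taken over the 3 replicates of a level. The clusters were ranked by the lowest of the 3 SDs, and the 200 highest were kept. The spread itself is therefore what chose them and is given as a description without a test.

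Nitraria sibirica is a shrub of saline soils. Greenhouse seedlings received 0, 100 or 400 mM NaCl for 3 days, with salt added in daily steps so that the levels were reached together, and leaf RNA of 3 replicates per level was sequenced. No strain, genotype or age is stated, and the labels number the replicates and do not state if each was a plant of its own. Each p-value below therefore reflects no more than the variation among these 9 libraries, and some of it may be technical. Total counts ran from 16502576 to 23932857 per library. The tables used here carry cluster names alone, without a gene name, description or sequence. No role is therefore given for any cluster, and the leaf label could not be checked against marker genes.

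As background, a salt-tolerant leaf under salt is known to adjust ion transport, compatible solutes and antioxidant enzymes, and such responses are read as differences between salt levels. A test for a salt response divides that difference by the spread between replicates. In an assembly made without a genome, alleles, gene copies and fragments of 1 transcript can be separate clusters. Reads that fit several clusters can be divided among them.

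Among the members the lowest of the 3 SDs ran from 0.82 to 3.93 with a median of 0.98, where the median of all eligible clusters was 0.15. An SD of log2 values of 1 over 3 replicates corresponds to a difference of several fold between the highest and the lowest. The highest replicate of a level exceeded the lowest by a median of 5.01-fold at 0 mM, 4.96-fold at 100 mM and 5.36-fold at 400 mM, beside 1.37, 1.42 and 1.46-fold over the eligible clusters. The level with the smallest SD was 0 mM for 65 members, 100 mM for 72 and 400 mM for 63, so that each level was the quietest one for a similar number. Most members were of moderate abundance. The mean FPKM was under 20 in 91 members, from 20 to under 50 in 74, and 100 or more in 18, with a median of 21.2.

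**Figure D1:**
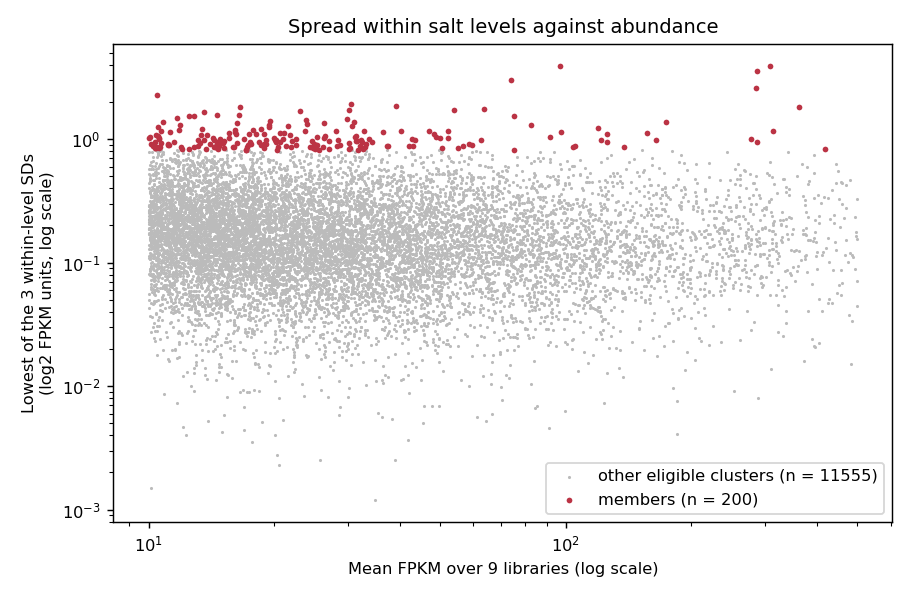
Lowest of the 3 within-level SDs of log2 FPKM (vertical, log scale) against mean FPKM over 9 libraries (horizontal, log scale) for the 200 members (red) and the other 11555 eligible clusters (grey). The members reach from an SD of 0.82 to 3.93, and clusters with 10 to 20 FPKM and with over 100 FPKM are both among them.

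The choice cut through a continuous range. Cluster-23439.63803 and Cluster-23439.39453, the last 2 inside, had a lowest SD of 0.8188 and 0.8187. Just outside, Cluster-23439.18145 and Cluster-23439.27081 had 0.8183 and 0.8182.

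The highest-ranked cluster moved between low and high abundance within each level. Cluster-23439.52167, 1064 bases long, stood at 5.05, 512.6 and 1.53 FPKM in the 0 mM replicates 1 to 3. It stood at 7.0, 752.84 and 816.19 FPKM at 100 mM and at 246.81, 429.94 and 2.89 FPKM at 400 mM. Of the 9 libraries 5 were above 200 FPKM and 4 were at 7.0 FPKM or below, with no value in between, and both kinds occurred at every salt level. The low values still rested on 24 to 129 counts, and the high ones on 4584 to 12096.

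Cluster-23439.53548, at rank 2 and 392 bases long, had 1 low replicate at each level. It was at 221.13, 1.47 and 240.02 FPKM at 0 mM, at 115.44, 0.36 and 44.40 at 100 mM, and at 107.00, 140.47 and 1.17 at 400 mM. The 3 low libraries were replicate 2 at 0 and 100 mM and replicate 3 at 400 mM, with 4, 1 and 4 counts. Its highest FPKM was 667 times its lowest.

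The largest such ratio belonged to Cluster-23439.51864, 1245 bases long, at 1147. Its FPKM was 2.81, 1433.55 and 446.16 at 0 mM, 1.25, 99.88 and 285.03 at 100 mM, and 14.98, 301.64 and 2.28 at 400 mM. Replicate 1 was low at 0 and 100 mM, while at 400 mM replicate 2 alone was high. In 0 mM replicate 2 this cluster took 27237 counts, the most of any member in any library.

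The next clusters by rank shared some low libraries with these and not others. Cluster-23439.48711 (534 bases) was at 51.02, 2.90 and 278.11 FPKM at 0 mM, 67.83, 183.45 and 0.78 at 100 mM, and 59.52, 19.28 and 1.03 at 400 mM. Cluster-23439.52907 (569 bases) was at 17.93, 333.81 and 1211.01 FPKM, then 204.72, 8.28 and 174.83, then 5.18, 150.37 and 458.31 in the same order. Cluster-23439.53812 (756 bases) was at 9.13, 1.48 and 35.98 FPKM, then 9.04, 0.54 and 7.89, then 10.59, 19.10 and 0.52. The low libraries of Cluster-23439.53812 were those of Cluster-23439.53548, and the deviations of both from their level means correlated at r = 0.957 over the 9 libraries. Among the 28 pairs of the 8 highest-ranked clusters this was the only one with r above 0.9 or below -0.9.

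Cluster-23439.35567 (435 bases) was low in most libraries and high in 2. It was at 204.92, 0.83 and 5.11 FPKM at 0 mM, 2.74, 2.02 and 50.71 at 100 mM, and 7.35, 0.54 and 1.30 at 400 mM. Cluster-23439.52806 (2599 bases) was at 5.5, 47.77 and 54.95 FPKM, then 27.78, 84.47 and 1.44, then 82.50, 0.72 and 46.77. A different replicate number was lowest at each level in this cluster: 1 at 0 mM, 3 at 100 mM and 2 at 400 mM.

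**Figure D2:**
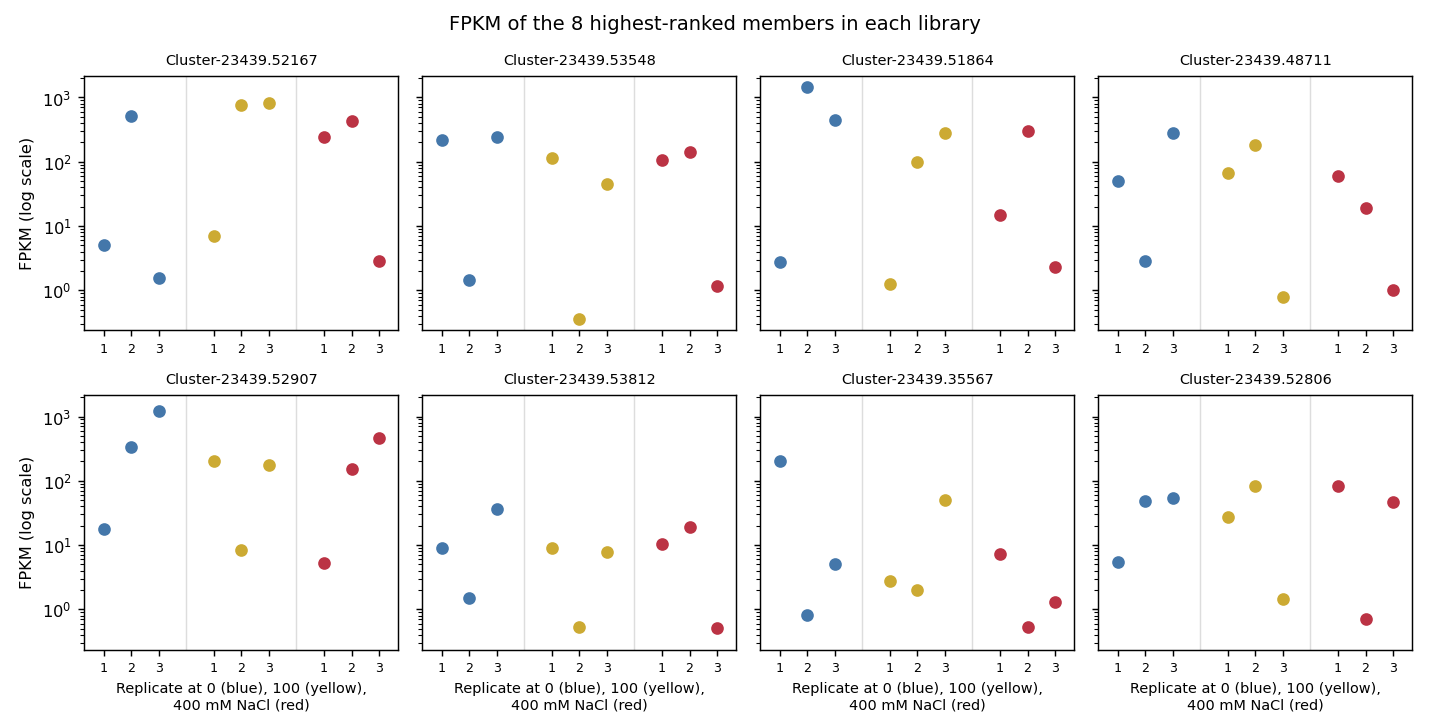
FPKM (log scale) of the 8 highest-ranked members in each of 9 libraries, by replicate number at 0 mM (blue), 100 mM (yellow) and 400 mM NaCl (red), 1 point per library. Within each level the points of a cluster lie far apart, such as 0.36 and 115.44 FPKM at 100 mM in Cluster-23439.53548, and the low replicate differs between clusters.

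Wide gaps like these were found in 50 members, where the 9 sorted values held a step of over 4-fold between neighbours. This was 25.0% of the members beside 2.36% of the eligible clusters, a difference that the choice by spread favours. In 24 of the 50 the step set a single low library apart from 8 others, in 10 it left 7 libraries above, and in 9 it left 6. Among the 278 eligible clusters with such a step, members included, these counts were 192, 34 and 24. A single low library was thus no more typical of the members. The single low library was 0 mM replicate 3 in 7 of the 24, 400 mM replicate 2 in 5 and 0 mM replicate 1 in 4. Every library was the low one for at least 1 cluster. Of the 50 members, 43 had a mean count of at least 100.

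At each level 1 low replicate stood apart in more members than 1 high replicate did. A replicate was taken as apart when its gap to the middle one exceeded 75% of the range on the log2 scale. In the order 0, 100 and 400 mM, a low replicate was apart in 73, 68 and 72 members, or 36.5%, 34.0% and 36.0%. Over the eligible clusters the shares were 26.2%, 24.5% and 25.2%. A high replicate was apart in 26, 48 and 40 members, or 13.0%, 24.0% and 20.0%, beside 21.3%, 22.9% and 22.2%. Low counts widen a log scale downward, and the lowest library had fewer than 10 counts in 64 members (32.0%, beside 3.64% of the eligible clusters). The part of low counts in these shares was not tested.

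The replicate that stood highest differed between members. At 100 mM replicate 1 was highest in 50.5% of the members, replicate 2 in 54 members and replicate 3 in 45. The counts for replicates 1, 2 and 3 were 85, 66 and 49 among the 400 mM libraries, and 54, 68 and 78 among those without salt. Of the eligible clusters, 44.2% had replicate 1 highest at 100 mM, and 43.4% at 400 mM (42.5% of the members). Without salt, replicate 3 was highest in 39.0% of the members and in 25.3% of the eligible clusters.

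The same replicate number was highest at all 3 levels in 26 members (13.0%), beside 21.4% of the eligible clusters. The most common combination was replicate 3 at 0 mM with replicate 1 at 100 and 400 mM, in 26 members (13.0%, beside 7.66%). Replicate 1 was highest throughout in 19 members (9.5%, beside 13.0%), replicate 3 in 6 (3.0%, beside 2.13%) and replicate 2 in 1 (0.5%, beside 6.25%). These shares describe the same libraries for all clusters and carry no test.

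Across the 200 members, deviations in 100 mM replicate 1 and 400 mM replicate 1 correlated at r = 0.272, the highest value between libraries of different levels. Over the eligible clusters the same pair stood at r = 0.38. Libraries with the same number had a mean r of 0.102 (from -0.0916 to 0.272) for the members, and libraries with different numbers a mean of -0.0503 (from -0.245 to 0.205). Over the eligible clusters these means were 0.106 and -0.052. The values are taken across clusters, which are not independent, and within a level the 3 deviations sum to 0.

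**Figure D3:**
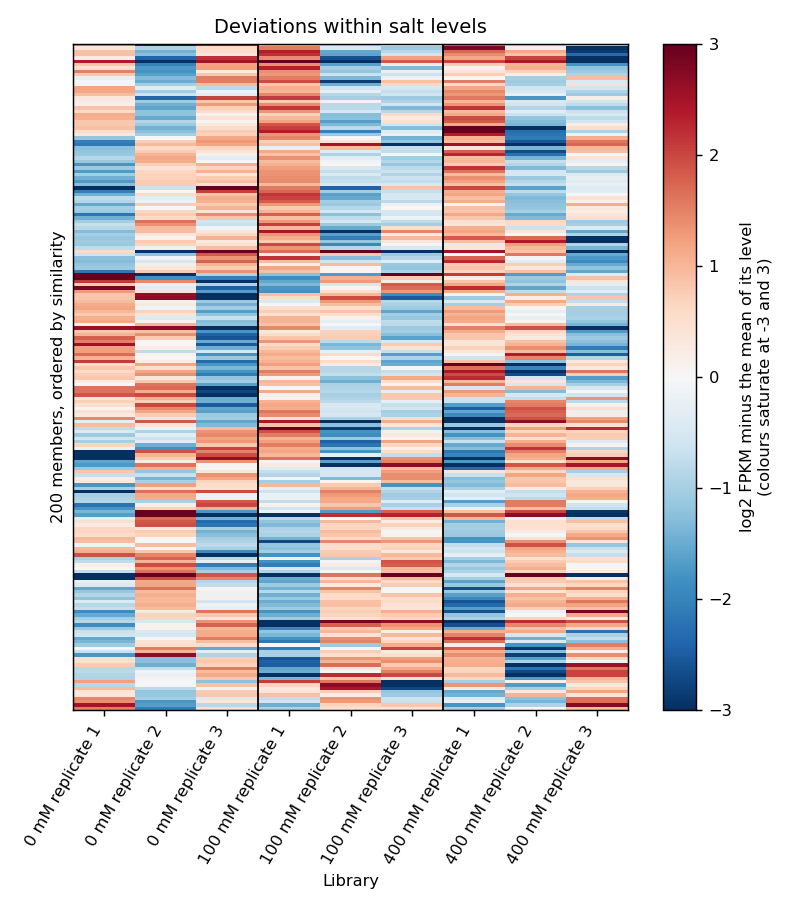
Deviation of log2 FPKM from the mean of its own salt level for the 200 members (rows, ordered by average linkage on correlation) in 9 libraries (columns). Red is above and blue below the level mean, with colours saturated at -3 and 3. Blocks of rows share a pattern over libraries, and no library is high or low in all of them.

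Members shared several patterns over the libraries. Of the 19900 pairs of members, 221 (1.11%) had deviations with r above 0.9 over the 9 libraries, beside 0.599% of pairs of eligible clusters. A further 127 pairs (0.638%) had r below -0.9, beside 0.472%. With r above 0.9 to at least 1 other member stood 136 members, and with r below -0.9 stood 105. Neither count was computed for equally many eligible clusters, so that they do not set the members apart. The 9 values hold 6 free ones after the level means are removed, and the shares over eligible clusters give the level of high r values found without the choice by spread.

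The 3 pairs with the highest r followed each other through every level. Cluster-23439.50563 (304 bases) was at 243.91, 49.40 and 190.37 FPKM at 0 mM, 305.31, 20.31 and 33.45 at 100 mM, and 135.68, 90.75 and 5.67 at 400 mM. Cluster-23439.50564 (316 bases), with the next number in the assembly, was at 324.15, 72.85 and 219.13 FPKM, then 356.83, 26.05 and 52.22, then 198.68, 140.06 and 15.00 (r = 0.995). In each of the 9 libraries the second cluster was the more abundant of this pair.

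Cluster-23439.18582 (748 bases) was at 1.45, 5.49 and 2.28 FPKM at 0 mM, 21.15, 99.67 and 71.51 at 100 mM, and 8.0, 88.62 and 93.49 at 400 mM. Cluster-23439.21451 (981 bases) was at 1.97, 6.16 and 2.63 FPKM, then 17.72, 59.27 and 48.30, then 11.44, 60.01 and 66.75 (r = 0.995). Replicate 1 was the lowest at every level in both, and every salt library lay above every 0 mM library. The third pair joined Cluster-23439.44425 (808 bases) with Cluster-23439.37551 (602 bases) at r = 0.993. Cluster-23439.44425 was at 5.59, 31.48 and 34.03 FPKM at 0 mM, 43.54, 10.05 and 9.70 at 100 mM, and 39.76, 9.45 and 13.29 at 400 mM. Cluster-23439.37551 was at 10.12, 41.77 and 34.89 FPKM, then 60.08, 21.91 and 21.64, then 52.99, 17.44 and 24.40. Replicate 1 was thus the low one at 0 mM and the high one at both salt levels.

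The pattern of the last pair was shared by further members. Cluster-23439.44424, singled out after its values were seen, had r above 0.9 with 12 other members, as many as Cluster-23439.44425 and more than the remaining members. It stood at 6.78, 29.26 and 31.51 FPKM at 0 mM, 31.45, 7.05 and 7.83 at 100 mM, and 36.03, 6.30 and 11.24 at 400 mM. In all 13 clusters replicate 1 was lowest at 0 mM and highest at both 100 and 400 mM. The 12 were taken by their r with Cluster-23439.44424, so that a like order follows from that choice. The number of such partners was not computed for eligible clusters. The median deviation of the 13 in replicate 1 was -1.44 without salt, 1.35 under 100 mM and 1.10 under 400 mM on the log2 scale. Their lengths ran from 365 to 2199 bases and their mean FPKM from 10.8 to 105.

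In the 3 most negative pairs 1 cluster was high where the other was low. The pairs were picked for this, so that a sum steadier than either cluster can follow from the choice. Cluster-23439.19806 (896 bases) was at 4.27, 19.49 and 11.32 FPKM at 0 mM, 21.02, 67.45 and 65.27 at 100 mM, and 5.93, 41.50 and 48.37 at 400 mM. Cluster-23439.57581 (1376 bases) was at 54.44, 11.79 and 22.35 FPKM, then 23.96, 9.78 and 7.23, then 50.71, 13.25 and 9.79 (r = -0.980). Their FPKM added together had an SD of 0.0437 on the log2 scale at 400 mM, far below that of either alone (1.69 and 1.26). At 0 and 100 mM the sum had an SD of 0.497 and 0.426, also below either cluster.

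Cluster-23439.57581 had a counterpart of the same length among the members. Cluster-23439.41792 (1376 bases) was at 0.74, 11.79 and 22.35 FPKM at 0 mM, 23.96, 9.78 and 7.23 at 100 mM, and 1.5, 13.25 and 9.79 at 400 mM. Both clusters held exactly equal counts in 7 of the 9 libraries and differed only in 0 mM replicate 1 (1018 and 13.8 counts) and 400 mM replicate 1 (1300 and 38.3 counts). This was the only pair among the 11755 eligible clusters with equal length and equal counts of at least 10 in 5 or more libraries, and it was looked for after these values were seen. How reads were divided between them is not stated, and its part in their spread was not tested.

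Cluster-23439.18252 (629 bases) was at 1.41, 12.71 and 3.94 FPKM at 0 mM, 12.54, 91.97 and 32.41 at 100 mM, and 1.83, 25.90 and 32.02 at 400 mM. Cluster-23439.52738 (998 bases) was at 302.62, 50.71 and 192.94 FPKM, then 117.53, 25.23 and 71.72, then 92.56, 10.60 and 14.11 (r = -0.978). Their sum had an SD of 1.17, 0.161 and 0.714 at the 3 levels. Here the sum was steadiest at 100 mM and followed the more abundant cluster at 0 mM.

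The most negative value, r = -0.983, joined Cluster-23439.77466 with Cluster-23439.52085, the most abundant member at a mean of 419 FPKM. Cluster-23439.52085 (1271 bases) was at 862.39, 244.50 and 859.40 FPKM at 0 mM, 582.42, 167.20 and 131.79 at 100 mM, and 524.36, 220.08 and 175.33 at 400 mM. It rested on 2440 counts or more in every library. Cluster-23439.77466 is only 205 bases long. Its FPKM of 14.05, 43.44 and 11.45, then 11.48, 29.41 and 40.46, then 18.99, 58.26 and 64.92 rested on 1 to 6 counts per library, so that its side of this pair lies near the counting limit. The sum of this pair had an SD of 0.925, 0.981 and 0.627 at 0, 100 and 400 mM.

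The second most abundant member, Cluster-23439.52912 (328 bases, mean 363 FPKM), was at 63.04, 247.77 and 793.61 FPKM at 0 mM, 26.57, 823.01 and 609.99 at 100 mM, and 21.80, 374.54 and 302.63 at 400 mM. Replicate 1 was the lowest at every level.

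**Figure D4:**
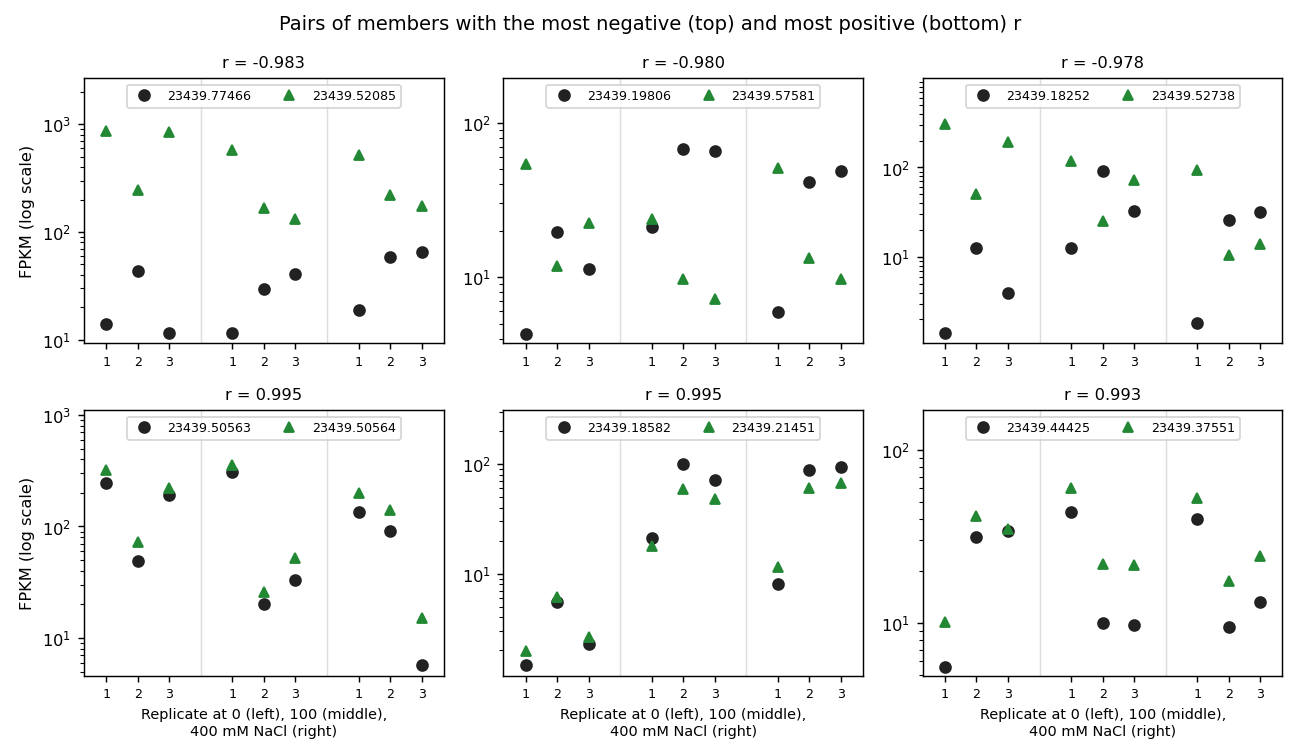
FPKM (log scale) by library for the 3 pairs of members with the most negative r (top, from -0.983 to -0.978) and the 3 with the most positive r (bottom, from 0.993 to 0.995), with 1 symbol per cluster and 1 point per library. In the top panels 1 cluster is high where the other is low within a level, and in the bottom panels both follow each other.

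Most member pairs with consecutive cluster numbers varied together. All 200 names have the same number before the point, as have 11753 of the 11755 eligible ones, so that it does not set the members apart. Of 7 pairs of members with consecutive numbers after it, 5 had r above 0.9 (71.4%, median 0.954), beside 58 of 2796 such pairs of eligible clusters (2.07%, median 0.0684). Both clusters of a member pair had to pass the choice by spread, which can favour pairs that vary together. Its part in this difference was not tested. What a shared or neighbouring number stands for is not stated in the sources used here. The 2 exceptions were Cluster-23439.30571 with Cluster-23439.30572 (r = -0.169) and Cluster-23439.56963 with Cluster-23439.56964 (r = -0.639). Cluster-23439.56963 (3886 bases) was at 20.93, 15.38 and 0.54 FPKM at 0 mM, 2.01, 12.11 and 13.66 at 100 mM, and 7.17, 16.54 and 5.35 at 400 mM. Cluster-23439.56964 (3348 bases) was at 18.54, 8.41 and 33.87 FPKM, then 32.84, 6.62 and 28.29, then 27.96, 9.35 and 25.80. In the first of these long clusters 0 mM replicate 3 was the lowest library, and in the second it was the highest.

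The members were shorter than the clusters they were drawn from. Their median length was 856 bases, beside 1350 for the eligible clusters. The share of eligible clusters that became members was 6.76% under 300 bases and 3.16% from 300 to under 500 bases. It was 2.26% from 500 to under 1000, 1.3% from 1000 to under 2000 and 0.806% from 2000 bases. Among clusters with a mean count of at least 100 the order was the same, at 3.31% under 500 bases and 2.3%, 1.3% and 0.806% in the longer classes. The longest members were Cluster-23439.52590 with 5918 bases and Cluster-23439.46084 with 4914. Cluster-23439.52590 was at 3.42, 19.16 and 23.96 FPKM at 0 mM, 4.58, 16.37 and 4.37 at 100 mM, and 15.42, 33.65 and 10.53 at 400 mM, on 320 counts or more. Cluster-23439.46084 was at 21.56, 12.37 and 3.63 FPKM, then 24.67, 46.75 and 12.40, then 7.20, 24.17 and 17.76, on 322 counts or more. The libraries of different levels overlapped in both.

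Short members could reach 10 FPKM on very few reads. For the 24 members under 300 bases the length implied by count and FPKM had a median of only 21.2 bases, and their mean counts ran from 2 to 57.3 with a median of 8.72. Over all members the implied length had a median of 609 bases, beside 856 for the full length. FPKM was thus scaled to less than the full length, which raises it most in short clusters. In all, 14 members had a mean count under 10, with lengths from 205 to 260 bases and mean FPKM from 10.4 to 40.2. The SD that counting alone would give was computed from the counts of each cluster. In 171 members (85.5%) the lowest SD was over 3 times that value, and in 179 (89.5%) over 2 times, beside 38.6% and 57.5% of the eligible clusters. The members were chosen by that SD, so that high shares follow from the choice. The other 21 were short, with a median of 250 bases and at most 507. For these 21 the spread was at most 2 times what counting alone would give, and this estimate covers counting error only.

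**Figure D5:**
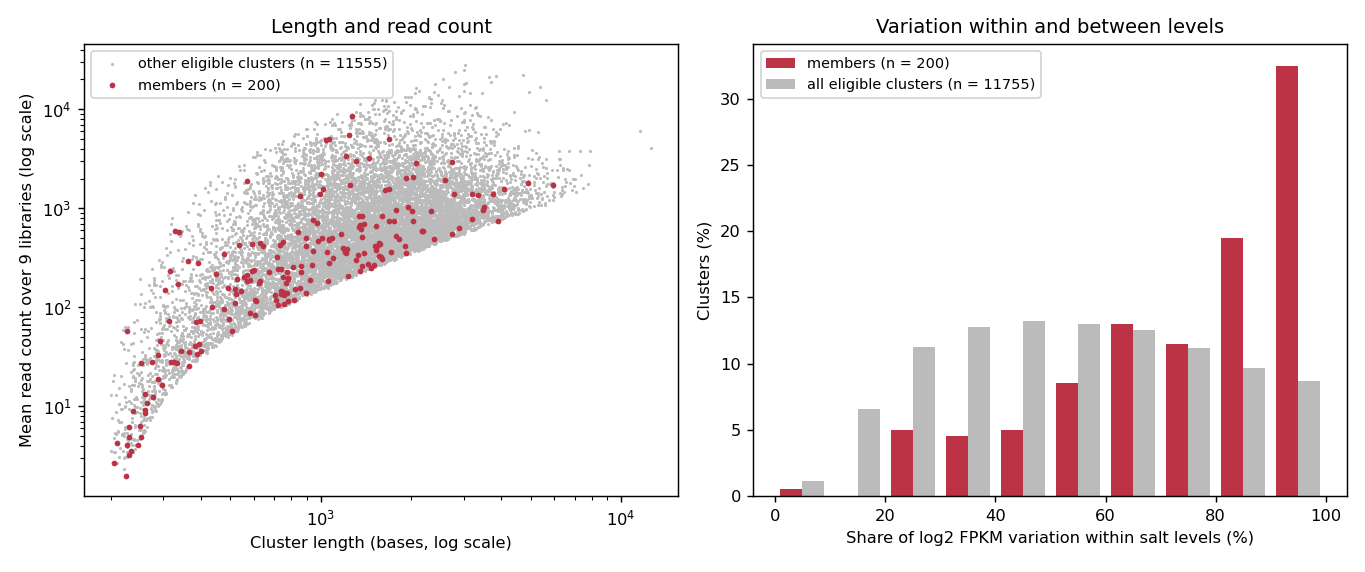
Left, mean read count over 9 libraries against cluster length (both log scale) for the 200 members (red) and the other 11555 eligible clusters (grey). Right, share of the log2 FPKM variation of a cluster that lies within salt levels, as percent of the 200 members (red) and of all 11755 eligible clusters (grey). Members with a mean count under 10 are at most 260 bases long, and 65 members have over 90% of their variation within levels.

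Some of the deposited counts are not whole numbers. At least 1 library held a count further than 0.005 from a whole number in 144 members (72.0%), beside 77.8% of the eligible clusters. With a mean count of at least 100 the shares were 81.6% and 81.7%.

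The members together took a similar part of each library. Their summed share of all counts was 0.63% ± 0.0779 without salt (mean ± SD, n = 3), 0.603% ± 0.0863 under 100 mM (n = 3) and 0.609% ± 0.0418 under 400 mM (n = 3). The libraries of the 3 levels overlapped. In bulk leaf RNA, fewer cells of a type and less RNA per cell cannot be told apart.

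Variation within levels made up a median of 81.3% of the log2 FPKM variation of a member, beside 54.0% over the eligible clusters, which follows from the choice. It was over 90% in 65 members (32.5%, beside 8.65% of the eligible clusters). It was under 50% in 30 members (15.0%, beside 45.0%). By mean log2 FPKM, 73 members were highest at 0 mM, 68 at 100 mM and 59 at 400 mM.

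Salt levels were compared with edgeR's quasi-likelihood test on the read counts of all clusters that passed its filter on low counts, with p-values adjusted over all 56832. Of the members 189 passed that filter. The other 11 were 205 to 252 bases long with at most 20 counts in any library. Since the members were chosen for the spread by which this test divides, few calls follow from the choice. At 100 against 0 mM 0 of 189 members passed an adjusted p of 0.05, where 0.5% of all clusters tested and 1.56% of the eligible ones did. At 400 against 0 mM and at 400 against 100 mM 0 members passed, as did 0% of all clusters. At an unadjusted p under 0.05, 30 members differed at 100 against 0 mM, beside 15.4% of all clusters and 27.1% of the eligible ones. Of these 24 were higher (8.9% of all clusters were) and 6 lower (6.53%). At 400 against 0 mM 22 members differed (13% of all, 24.8% of the eligible), 18 of them higher (8.13% of all) and 4 lower (4.9%). At 400 against 100 mM 9 members did (7.02% of all, 12% of the eligible), 6 higher (3.63% of all) and 3 lower (3.39%). Of the 11662 eligible clusters tested, 2406 were higher and 751 lower at 100 against 0 mM. These counts were 2196 and 701 at 400 against 0 mM, and 575 and 828 at 400 against 100 mM.

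Other tools called more members. By DESeq2, 23 members passed an adjusted p of 0.05 at 100 against 0 mM, where 8.74% of all clusters with an adjusted p and 19.4% of the eligible ones did. It called 17 members at 400 against 0 mM (6.52% of all, 15.6% of the eligible) and 2 at 400 against 100 mM (2.05%, 4.26%). By limma on log2(FPKM + 1), 2 members passed at 100 against 0 mM (1.02% of all, 2.2% of the eligible), 1 at 400 against 0 mM (0.111%, 0.0851%) and 0 at 400 against 100 mM (0.0143%, 0%). With log2(FPKM + 0.1) these counts were 1 (0.637% of all, 0.476% of the eligible), 1 (0.322%, 0.0681%) and 0 (0.0756%, 0%). By edgeR without 400 mM replicate 1, 5 members passed at 100 against 0 mM (1.04% of all, 3.84% of the eligible), 0 at 400 against 0 mM (0.193%, 0.736%) and 0 at 400 against 100 mM (0% of both).

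Both salt comparisons share the 0 mM libraries. The 100 mM libraries did not overlap the 0 mM libraries in 28 of 189 members, where 25.5% of all clusters tested and 35.5% of the eligible ones had no overlap. At 400 against 0 mM this held for 20 members (22.8% of all, 33.6% of the eligible) and at 400 against 100 mM for 6 (14.4% of all, 20.6% of the eligible).

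Fitted differences were large but imprecise, and the choice by spread favours both. The median size of the log2 fold change, whatever its sign, was 0.998 for the members at 100 against 0 mM with a median standard error of 0.99. For the eligible clusters it was 0.34 with 0.26. At 400 against 0 mM the members had 0.78 with 0.99, and at 400 against 100 mM 0.59 with 0.97. The signed medians of the members were 0.18, 0.17 and -0.09. When libraries were scaled by their size alone, the first 2 were -0.04 and -0.02, and the median of all clusters moved by -0.25 and -0.19. For this reason no direction is given for the members as a set.

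The smallest p among the members belonged to Cluster-23439.14555 in both comparisons with 0 mM. This cluster of 312 bases was at 0.85, 0.80 and 2.89 FPKM at 0 mM, 97.72, 22.01 and 50.97 at 100 mM, and 31.86, 107.16 and 126.55 at 400 mM. Every salt library lay above every 0 mM library, where it had 1, 1 and 4 counts, and only 9.83% of its log2 variation lay within levels. The fitted log2 fold change was 5.28 ± 0.90 (standard error) at 100 against 0 mM, with an edgeR adjusted p of 0.0531, and 5.88 ± 0.92 at 400 against 0 mM, with 0.12. Over the alternatives tried, the adjusted p (by edgeR, DESeq2 or limma) ran from 1.09e-06 to 0.175 and from 9.6e-08 to 0.338.

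At 400 against 100 mM the smallest p belonged to Cluster-23439.63803, which is 767 bases long. It was at 1.97, 7.68 and 0.90 FPKM at 0 mM, 22.01, 39.61 and 68.47 at 100 mM, and 7.98, 3.45 and 2.34 at 400 mM. All 100 mM libraries lay above those of the other levels, and those at 0 and 400 mM overlapped. The fitted log2 fold change at 400 against 100 mM was -3.34 ± 0.88 (standard error), with an unadjusted p of 0.00498 and an edgeR adjusted p of 0.566. Over the alternatives, by edgeR, DESeq2 or limma, the adjusted p ran from 0.0021 to 0.894.

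The last member by rank had its levels in another order. Cluster-23439.39453 (608 bases) was at 68.05, 23.40 and 28.58 FPKM at 0 mM, 12.65, 2.55 and 3.06 at 100 mM, and 10.52, 3.57 and 1.98 at 400 mM. Every salt library lay below every 0 mM library, and replicate 1 was the highest at each level. Its fitted log2 fold change was -2.50 ± 0.83 at 100 against 0 mM and -2.72 ± 0.83 at 400 against 0 mM (standard errors), with edgeR adjusted p of 0.21 and 0.249. DESeq2 called it lower in both, with adjusted p of 0.0197 and 0.012. Over the alternatives, by edgeR, DESeq2 or limma, the adjusted p ran up to 0.473 and 0.567.

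In the top-ranked cluster the levels overlapped. The fitted log2 fold change of Cluster-23439.52167 was 1.89 ± 2.27 at 100 against 0 mM and 0.52 ± 2.20 at 400 against 0 mM (standard errors), with edgeR adjusted p of 0.767 and 0.957. Over the alternatives, by edgeR, DESeq2 or limma, the adjusted p ran from 0.321 to 0.895 and from 0.401 to 1.0. At this spread a difference of several fold between levels was not detectable.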

How the data were processed

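Per the file headers, the deposited table of each leaf library (9 in all) lists a read count and an FPKM for 126059 clusters. The deposited read counts are estimated counts (fractional in 38.5% to 42.5% of clusters) and were rounded to whole numbers. The FPKM values were computed by the authors. A series table gives FPKM and length of the 31628 clusters above 0.3 FPKM in all libraries, and matched those tables in every value. The submitters' processing notes name TopHat2 2.0.9 and Bowtie2 2.0.6 without a role. No source used here states the assembler, the counting tool or the strand setting.

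The members and lists were chosen with earlier results of these data known. The rule for named clusters took the 8 highest ranks, 2 on either side of the limit, the 2 most abundant, the 2 longest, the 2 largest ratios, the smallest p per comparison, and the 3 most positive and 3 most negative pairs. Cluster-23439.44424, Cluster-23439.41792 and the pairs with consecutive numbers fall outside it and were chosen after their values were seen. Lists by protein description were not run, since the tables used here hold none.

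Tests used edgeR 4.0.16 (TMM scaling, default filter, 9 libraries in 1 fit, 6 residual degrees of freedom, R 4.3.3) with Benjamini-Hochberg adjustment, after a check on simulated data. The simulated spread was set lower than that of these libraries, so that the check does not cover the spread of the members. DESeq2 1.42.0 (with its local dispersion fit) and limma 3.58.1 served as alternatives. Descriptions used numpy 2.4.6 and pandas 2.3.3.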

Additional observations from a re-analysis of the deposited data

How the results depend on the processing

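Of the 200 members, 158 were kept when ranked on scaled counts (TMM-scaled CPM + 0.5), 184 on log2(FPKM + 1) and 187 by range. Only 91 were kept by the median of the 3 SDs and 105 with mean FPKM from 5. From 20 FPKM, 109 were kept. Leaving out 1 replicate kept 102 to 162, with 102 without 100 mM replicate 1 and 118 without 400 mM replicate 1. Chosen after seeing the data, ranking only clusters of at least 500 bases kept 149, and only mean counts of at least 100 kept 158. These last 2 counts and that from 20 FPKM are the members inside the limit, fixed by how the ranking works, and say nothing of stability. Without clusters under 500 bases the median length was 1165, beside 1463 for eligible clusters.

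Members called at 100 against 0 mM, 400 against 0 mM and 400 against 100 mM were 0, 0 and 0 by edgeR's quasi-likelihood test. DESeq2 called 23, 17 and 2. With limma and a pseudocount of 1 FPKM the calls were 2, 1 and 0, and with 0.1 FPKM they were 1, 1 and 0. Other scalings and no filter called 0, where 138 to 305 of all clusters passed at 100 against 0 mM and 0 in the other comparisons. Leaving out 1 library gave 0 to 5 calls at 100 against 0 mM, with the 5 without 400 mM replicate 1, and 0 to 0 in the other comparisons. Over all clusters tested, 649 passed at 100 against 0 mM without 400 mM replicate 1 and 172 without 400 mM replicate 3. Without any other library 0 to 7 of all clusters passed, so that 0 calls there say nothing particular of the members. With the replicate number as a block the counts were 6, 2 and 0 (1.06%, 0.146% and 0% of all clusters). Over all clusters tested the block called 601 and 83 at 100 and 400 against 0 mM, beside 284 and 0. Of the 11662 eligible clusters tested it called 453 and 68, beside 182 and 0 without it. With the block, Cluster-23439.39453 had an edgeR adjusted p of 0.0379 at 100 against 0 mM. Deviations of same-numbered libraries over all clusters tested correlated from -0.0116 to 0.216 (mean 0.0541), and of other libraries of different levels at a mean of -0.027. Over eligible clusters the same-numbered range was 0.000146 to 0.38. Over all clusters tested, the only same-numbered pair above 0.1 was 100 mM replicate 1 with 400 mM replicate 1 (0.216). There 0 mM replicate 3 correlated more with 100 mM replicate 1 (0.0665) than with its own number. The numbers were therefore not taken to pair the libraries. Calls by edgeR rest on 3 libraries per level, and low counts limit the 14 members with a mean count under 10.

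The share with the same number highest at all levels was 11.6% on scaled counts (16.4% of eligible clusters) and 14.6% (21.7%) at mean counts of at least 100. Pairs with r above 0.9 made up 1.11% and 1.23% in the same order, and pairs below -0.9 0.642% and 0.605%. The mean r of same-numbered libraries was 0.112 on scaled counts. Counts not whole in all 9 libraries occurred in 53.5% of members and 61.6% of eligible clusters, and with a tolerance of 0.05 in at least 1 library in 70.5% of members.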
